A study of Homo sapiens with 4 samples.

Results

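Tandem acceptors 3 nucleotides (nt) apart made up 928 of the 4387 alternative 3' splice site (A3SS) events in the deposited splicing table, or 21.2%. An event belonged to this class when its long exon form exceeded its short form by exactly 3 nt, and no measured value entered the choice. The distance of 3 nt was the most frequent one, ahead of 4 nt with 145 events, 5 nt with 106 and 6 nt with 71. The 928 events lay at 788 distinct acceptor pairs in genes with 738 symbols, since 127 pairs were listed in more than 1 event, with different flanking exons, and 48 genes held more than 1 pair. NCOR1 and PRRC2B held 3 pairs each. In CNBP and HMBOX1 the downstream acceptor of a pair was also the upstream acceptor of the next, so that 3 acceptors followed each other.

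The RNA-seq covered 4 libraries of U87MG, an established glioblastoma cell line, without any genetic change between the groups. In the RBFOXi group (2 libraries) cells received 2.5 µM of a decoy, a 2′-O-methyl RNA oligonucleotide that carries repeats of the motif bound by the RBFOX splicing factors, and in the SCRM group (2 libraries) the same dose of a scrambled oligonucleotide, both by lipofection. By its label RBFOXi replicate 1 received a Cy5 version of the decoy, with no dye named elsewhere, and the design text calls the replicates of each condition independent and biological. The question was whether titrating RBFOX proteins away alters splicing. The table holds splicing counts and no expression levels, so the cell line was not checked against marker genes.

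At the end of an intron the spliceosome first recognizes the branch point, the polypyrimidine tract and an AG, the last through U2AF1, and then joins the upstream exon to a nearby AG in the second catalytic step. Where a pair of AGs stands side by side in the pattern NAGNAG, either can be joined. Use of the upstream AG gives an exon that starts with the second NAG (the long form), and use of the downstream AG leaves it out (the short form). In coding sequence such a choice keeps the reading frame and inserts or removes a codon, or exchanges codons where the junction splits one. RBFOX proteins bind UGCAUG in introns and are known mainly for their effect on cassette exons.

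The sequence of 924 of the 928 members (99.6%) read NAGNAG in the hg19 genome. The windows printed here hold 30 nt of that genome, read in the direction of transcription, with 18 nt of intron before the tandem acceptor, the NAGNAG in capitals, and 6 nt of the exon shared by both forms. Other positions given later mark the 3 nt between the acceptors in hg19. The upstream form starts after the first AG in capitals and the downstream form after the second. First come a pair of very high count, the 4 well-counted pairs whose forms were most balanced in SCRM cells, and the pair of RBFOX2, the gene of an RBFOX protein. The RBFOX2 window was added after the values were seen.
PTMA (MIR1244-2 in the table), chr2:232576576-232576605, plus strand: catggcctgttttctgtcGAGGAGaatgag
CDC27, chr17:45219383-45219412, minus strand: tactatgttgttttctccTAGAAGgtttga
EWSR1, chr22:29687530-29687559, plus strand: tttcttcgtttatcccccCAGCAGcgctgg
KRBA1, chr7:149418450-149418479, plus strand: attctccctctttcccgaCAGCAGctgcgg
WWC1, chr5:167894824-167894853, plus strand: ggccttgcttgctttgccCAGCAGatggac
RBFOX2, chr22:36177785-36177814, minus strand: attctttatttctttgctTAGCAGacagaa
The next 4 are the tested pairs in which the long form would add the stop codon TAG in frame, chosen after their values were seen.
ADAM15, chr1:155028242-155028271, plus strand: gataattcttcttgtccaTAGTAGaggcgg
MKLN1, chr7:131083976-131084005, plus strand: catacttactctgtgttcTAGTAGtaccgt
CEP250, chr20:34065672-34065701, plus strand: ctcccttccctttttggcCAGTAGttagag
DPH7, chr9:140469290-140469319, minus strand: atggagtttcttcttctcCAGTAGaagagc
The last 10 are the pairs with the largest differences between conditions among those of a mean of at least 50 counts whose libraries did not overlap, the 5 that were higher in RBFOXi first.
HLTF, chr3:148777586-148777615, minus strand: gattctttgttgttttatCAGCAGgatctt
MAP9, chr4:156289956-156289985, minus strand: tttaagcattttatttttCAGCAGaaaaca
CHD9, chr16:53340125-53340154, plus strand: aatgattataattgttttTAGCAGaaagta
SLC29A1, chr6:44194976-44195005, plus strand: tcacactgttcctgccccCAGCAGgcccct
BAI2, chr1:32193873-32193902, minus strand: ctgatgccctgtggccccTAGAAGgtgatg
FAM63B, chr15:59146660-59146689, plus strand: tgctgtatatttttcttaAAGCAGggccag
C11orf80, chr11:66605817-66605846, plus strand: aggacttctaatttttttAAGCAGctaacc
MAGI1, chr3:65456154-65456183, minus strand: tcacctcttcacatgattAAGCAGccgatt
WDR47, chr1:109547332-109547361, minus strand: ttttttgcacgtttctggAAGAAGtgatac
SETDB1, chr1:150921822-150921851, plus strand: ccctcttctctaatctccTAGAAGcttgga
CAGCAG was the most frequent tandem, with 383 members, followed by TAGCAG with 188, AAGCAG with 93, CAGAAG with 84, and TAGAAG and CAGTAG with 46 each. The intron began with GT in 917 members and with GC in 11. Both acceptors were annotated in GENCODE transcripts in 786 members, only the upstream one in 105, only the downstream one in 36 and neither in 1. The 3 nt formed a whole codon in 324 members, fell across codons in 498 and lay outside coding sequence in 106.

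Read counts over the 3 nt events summed to 298079 and 346590 in RBFOXi replicates 1 and 2 and to 241797 and 354849 in SCRM replicates 1 and 2. Of the 928 events, 681 (73.4%) reached 5 counts in each library, 20 on average and 4 of each form, and were tested. They represented 644 pairs in 602 genes. Of the rest, 234 had too few counts and 13 had fewer than 4 counts of the downstream form, so the tested set leaves out pairs used almost entirely at 1 site. The median depth of these 681 events was 173 and 216 counts for RBFOXi, 109 for SCRM replicate 1 and 228 for SCRM replicate 2, which makes SCRM replicate 1 the least precise library for these events. Its counts also departed from the others pair by pair, from 6 in HLTF, where the other libraries had 58 to 82, to 16634 in EEF1D, where they had 10895 to 11252.

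Use of the upstream acceptor was expressed as percent spliced in (PSI), written as a fraction, the share of the long form after each count was divided by the effective length of its form. In SCRM cells both forms were commonly made. The median PSI was 0.692 (quartiles 0.405 and 0.868), and the upstream acceptor was the major one in 470 of 681 events (69.0%). PSI lay between 0.1 and 0.9 in 514 events (75.5%), above 0.9 in 133 (19.5%) and below 0.1 in 34 (4.99%). Library medians ranged from 0.690 to 0.699.

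Pairs at other distances had a different spread of use in the same libraries. Of these 2328 tested A3SS events, 39.3% had an SCRM PSI between 0.1 and 0.9, 25.3% lay below 0.1 and 35.4% above 0.9, around a median of 0.719. Among the 337 tested events 4 to 12 nt apart, the upstream acceptor dominated, with a median of 0.919 and 54.0% of events above 0.9. Events of the same libraries are not replicates, so these shares are given without a test.

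**Figure D1:**
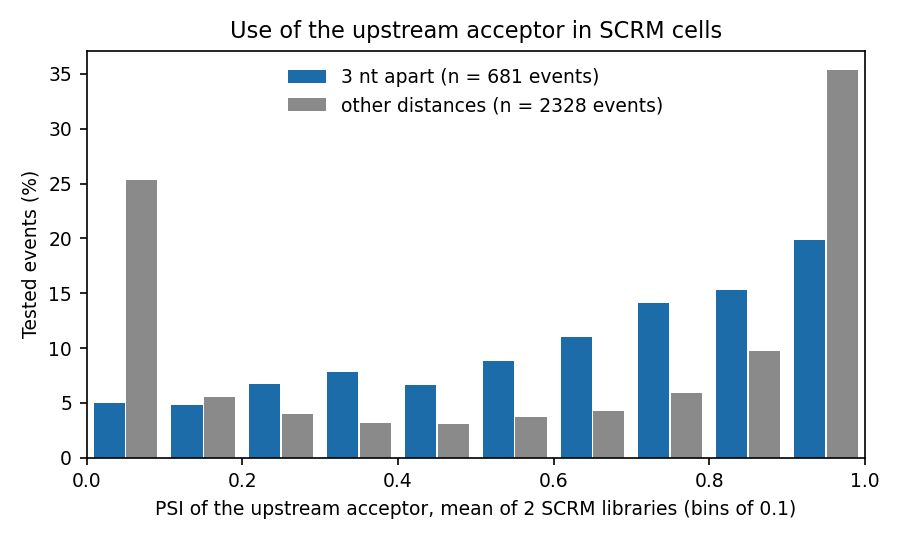
Share of tested events (vertical axis, percent) in 10 bins of the SCRM PSI of the upstream acceptor (horizontal axis, mean of 2 libraries), for the 681 events 3 nt apart and the 2328 at other distances. Of the events 3 nt apart 75.5% lay between 0.1 and 0.9, against 39.3% of those at other distances, which gathered at both ends.

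The base before each AG moved with the choice between the acceptors. CAGCAG pairs had a median SCRM PSI of 0.615 (n = 281 tested events), and those with A in place of C before the upstream AG (AAGCAG) a median of 0.356 (n = 62). With A before the downstream AG instead (CAGAAG) the median was 0.935 (n = 62). TAGCAG pairs lay at 0.700 (n = 142), TAGAAG at 0.887 (n = 35), CAGTAG at 0.753 (n = 31), TAGTAG at 0.711 (n = 16), AAGAAG at 0.651 (n = 15) and AAGTAG at 0.416 (n = 10). The acceptor with a pyrimidine before its AG was thus the more used one where the other had A, and where both had the same base the upstream acceptor had a median above 0.5 for C, T and A.

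Grouped by a single base, pairs with A before the upstream AG had a median PSI of 0.471 (n = 92), against 0.725 for C (n = 380) and 0.753 for T (n = 196). Only 9 tested events had G there, at 0.606. For the downstream AG the order was reversed in sense, with 0.618 for C (n = 488), 0.719 for T (n = 57), 0.881 for A (n = 115) and 0.981 for G (n = 17). The medians for C and T before the upstream AG stood close together, and no difference is read from them. In each of the 4 libraries alone the median for upstream A lay between 0.432 and 0.482 and that for downstream A between 0.886 and 0.903. At 4 to 12 nt the medians by the upstream base were 0.956 for T, 0.951 for C, 0.916 for A and 0.382 for G (n = 29). By the downstream base they were 0.906 for C (n = 237), 0.941 for T (n = 64) and 0.974 for A (n = 34). The order of C, T and A by the downstream base was thus the same at both distances.

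GAGGAG was found in 3 tested events, with SCRM PSI from 0.102 to 0.988 and a median of 0.137. The best counted is the pair in PTMA, the gene of prothymosin alpha, a small acidic nuclear protein, listed in the table under the microRNA symbol MIR1244-2. Its PSI was 0.0977 and 0.105 in RBFOXi replicates 1 and 2 and 0.0984 and 0.105 in SCRM replicates 1 and 2, on 7409 to 8904 counts a library. The 4 values stood close together, so the downstream GAG was the major acceptor in every library. PTMA has many processed copies in the genome, so the counts of this pair are uncertain. The polypyrimidine content of the 20 nt before the tandem, a median of 75%, separated the pairs little, with median PSI 0.684, 0.705 and 0.718 in classes of 45 to 70%, 75 to 80% and 85 to 95% pyrimidines.

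The position in the reading frame went with smaller differences, apart from stop codons. Median SCRM PSI was 0.750 where the 3 nt formed a whole codon (n = 228 tested events), 0.690 where they fell across codons (n = 374) and 0.641 outside coding sequence (n = 79). Among whole codons the added triplet was CAG in 177 tested events (median 0.663), AAG in 39 (0.945) and GAG in 8 (0.979), triplets that are at the same time the downstream acceptors described above. Where only the upstream acceptor was annotated the median was 0.940 (n = 75), and where only the downstream one was, 0.272 (n = 23).

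In 6 members the long form would add TAG as a whole codon, a stop, and 4 of these could be tested. Their SCRM PSI ran from 0.0123 to 0.224 with a median of 0.0409, whereas tandems with a downstream TAG had medians of 0.714 where it fell across codons (n = 41) and 0.761 outside coding sequence (n = 12). In ADAM15, a membrane metalloprotease of the disintegrin family, PSI was 0.00415 and 0.0255 in RBFOXi replicates 1 and 2 and 0.00822 and 0.0165 in SCRM replicates 1 and 2. In MKLN1, which encodes muskelin, a subunit of a ubiquitin ligase, the values were 0.0211 and 0.0754 in RBFOXi replicates 1 and 2 and 0.0196 and 0.0262 in SCRM replicates 1 and 2. In CEP250, a centrosomal linker protein, they were 0.0784 and 0.0667 in RBFOXi replicates 1 and 2 and 0.0667 and 0.0510 in SCRM replicates 1 and 2. The short form made up most of the reads of these pairs in every library. The fourth pair, in DPH7 (an enzyme of diphthamide synthesis), had 0.172 and 0.135 in RBFOXi replicates 1 and 2 and 0.214 and 0.234 in SCRM replicates 1 and 2. ADAMTSL5 and LRRK1 had too few counts, as did an event of AFF1 in which the stop would arise across the junction.

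Among the best counted pairs named here, CNBP varied the most between libraries. Changes are given beside the PSI values as delta PSI (mean of RBFOXi minus mean of SCRM) and as a change in log2 odds with the 95% interval from limma, and every pair named had a limma adjusted p of 0.999. EEF1D, a subunit of the elongation factor that reloads eEF1A with GTP, had the most counts (11252, 11110, 16634 and 10895 in RBFOXi 1 and 2 and SCRM 1 and 2) at chr8:144669020-144669022. Its PSI was 0.856 and 0.857 in RBFOXi replicates 1 and 2 and 0.870 and 0.863 in SCRM replicates 1 and 2, with both SCRM values slightly above both RBFOXi values (delta PSI -0.0103, log2 odds -0.12, 95% interval -0.40 to 0.15). CNBP, a zinc finger protein that binds nucleic acids, showed 0.326 and 0.287 in RBFOXi replicates 1 and 2 and 0.354 and 0.307 in SCRM replicates 1 and 2 at chr3:128890121-128890123. There the replicates of a condition differed by more than the condition means, whose difference was -0.0244. VDAC1, the main channel of the mitochondrial outer membrane, had a PSI of 0.851 ± 0.0102 in RBFOXi and 0.844 ± 0.00343 in SCRM (SD, n = 2 each) outside coding sequence at chr5:133328707-133328709. For CAP1, a regulator of actin turnover, the pair at chr1:40525006-40525008 gave 0.298 and 0.289 in RBFOXi replicates 1 and 2 and 0.277 and 0.274 in SCRM replicates 1 and 2, with both RBFOXi values above both SCRM values (delta PSI 0.0180, log2 odds 0.13, 95% interval -0.17 to 0.43).

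The 4 pairs nearest to equal use in SCRM lay in genes of different function. EWSR1, an RNA-binding protein of the FET family, had a PSI of 0.475 and 0.498 in RBFOXi replicates 1 and 2 and 0.502 and 0.510 in SCRM replicates 1 and 2. CDC27, a core subunit of the anaphase-promoting complex, had 0.515 and 0.450 in RBFOXi replicates 1 and 2 and 0.494 and 0.521 in SCRM replicates 1 and 2, and the groups overlapped. CDC27 also has copies elsewhere in the genome that can share reads. In WWC1, a scaffold of the Hippo pathway known as KIBRA, values were 0.531 and 0.553 in RBFOXi replicates 1 and 2 and 0.524 and 0.472 in SCRM replicates 1 and 2. KRBA1 varied the most of the 4, with 0.359 and 0.452 in RBFOXi replicates 1 and 2 and 0.422 and 0.587 in SCRM replicates 1 and 2. Between conditions these pairs differed by -0.0195, -0.0249, 0.0442 and -0.0992 in the order given, with limma p between 0.226 and 0.730.

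No pair 3 nt apart passed the test between RBFOXi and SCRM. With limma on the log2 odds of the upstream form, adjusted over all 3009 tested A3SS events, 0 of the 681 events combined an adjusted p under 0.05 with a delta PSI of 0.1 or more in size, and the smallest adjusted p was 0.999. The background was the same, with 0.0% of all tested A3SS events called. An unadjusted limma p under 0.05 was reached by 15 of the 681 events (2.20%), against 3.32% of all tested A3SS events, 10 of them with higher and 5 with lower PSI in RBFOXi (2.06% and 1.26% of all). A quasi-binomial F test on the counts called 0 as well. It put 11 events under an unadjusted 0.05 (1.62%, against 4.29% of all tested A3SS events). Leaving out SCRM replicate 2 leaves SCRM replicate 1 as the only control. Events were then called at other distances as well as at 3 nt. Those at 3 nt lay in FOXP1, ARHGAP5, ZEB1, WNK1 and ENTPD6, on 5 to 79 counts in SCRM replicate 1. Their delta PSI without SCRM replicate 2 was -0.23, -0.19, -0.46, -0.30 and -0.17 in that order. An exact permutation test of 2 against 2 libraries cannot go below p = 0.333 for a single pair.

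The differences between conditions had the size of those between replicates. Delta PSI had a median of 0.00054 (quartiles -0.0265 and 0.0240), with 345 events higher and 336 lower in RBFOXi, and the median over the events at other distances was 0.00102. The median absolute delta PSI was 0.0256, against 0.0304 between the RBFOXi replicates and 0.0351 between the SCRM replicates. A difference between means of 2 libraries has less sampling spread than one between single libraries, so single libraries were also set against each other. Those of opposite groups differed by a median of 0.0258 to 0.0385, a range that holds both replicate differences. Over the 681 events PSI correlated with r = 0.968 between RBFOXi and r = 0.952 between SCRM replicates, a description over events that share libraries and depth. A delta PSI of 0.1 or more in size was seen in 62 events (9.10%, with 6.88% over all tested A3SS events). RBFOXi lay above both SCRM libraries in 121 events and below both in 124, together 36.0%, where all tested A3SS events gave 16.7% above and 14.2% below, together 30.9%.

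**Figure D2:**
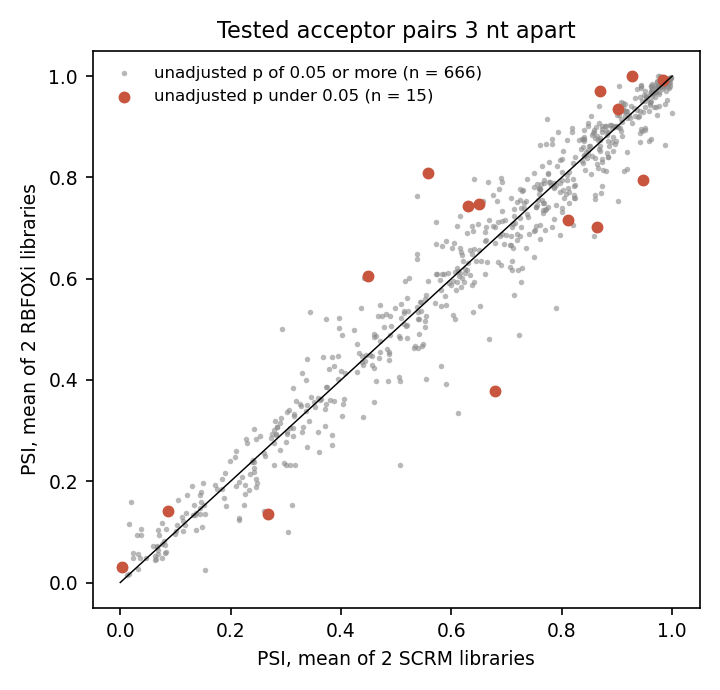
PSI of the upstream acceptor in RBFOXi (vertical axis, mean of 2 libraries) against SCRM (horizontal axis, mean of 2 libraries) for the 681 tested events 3 nt apart, with the line of equality. The 15 larger points have an unadjusted limma p under 0.05, 10 above the line and 5 below it, and none passed adjustment.

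Differences were smaller in events with more counts. In the 94 events with a mean under 50 counts a library, the median absolute delta PSI was 0.0651 and 26 events reached 0.1, while replicates differed by 0.0845 in RBFOXi and 0.0823 in SCRM. In the 259 events with 50 to 200 counts the median was 0.0376, and in the 260 with 200 to 1000 it was 0.0168. Among the 68 events with 1000 or more counts it was 0.00808, next to 0.00998 and 0.00897 between replicates, and no event reached 0.1. DDX54, an RNA helicase of the nucleolus, differed the most in this last class, with PSI 0.628 and 0.562 in RBFOXi replicates 1 and 2 and 0.559 and 0.557 in SCRM replicates 1 and 2 (delta PSI 0.0374, log2 odds 0.22, SE 0.19). Its replicates in RBFOXi differed by more than the conditions did. The median 95% interval of a change, without adjustment, had a half-width of 0.41 log2 units in odds at 1000 or more counts. Over all tested 3 nt events it was 0.92. Smaller changes than these were mostly not detectable, but the widths are not limits above which a change would be called. A call also needed adjustment over all tested A3SS events. In simulated data limma called 27 of 42 3 nt events changed by 2 log2 units. That simulation changed 200 events and gave all events a common overdispersion. Both settings can differ from the real table, so the share is no estimate of what would be called there.

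**Figure D3:**
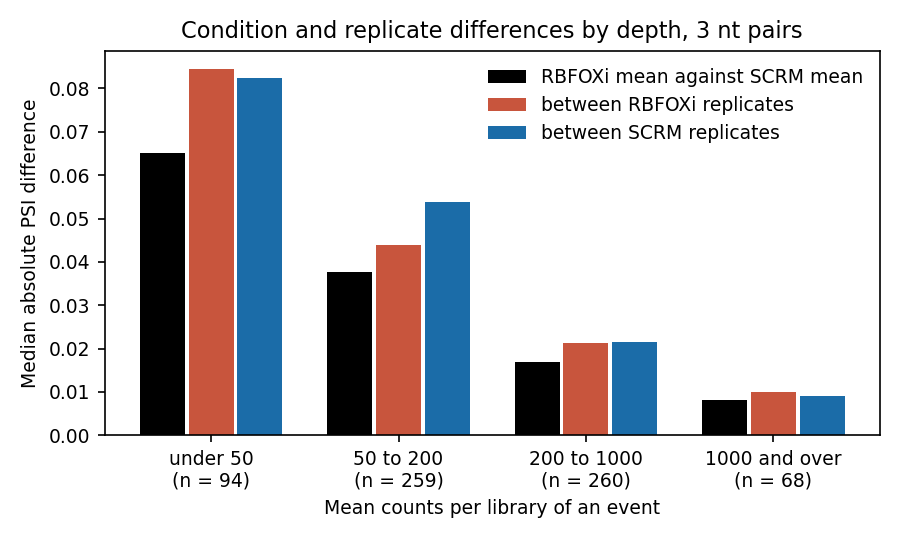
Median absolute PSI difference (vertical axis) between the RBFOXi and SCRM means and between replicates of each condition, in 4 classes of mean counts a library (horizontal axis, number of events in brackets). In each class the bar for the condition is the lowest of the 3, falling from 0.0651 under 50 counts to 0.00808 at 1000 counts or more.

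Among pairs with a mean of at least 50 counts and no overlap between conditions, the largest higher value in RBFOXi was in HLTF, a DNA translocase of the replication stress response. Its PSI was 0.796 and 0.821 in RBFOXi replicates 1 and 2 and 0.478 and 0.638 in SCRM replicates 1 and 2 (delta PSI 0.251, log2 odds 1.69, 95% interval 0.25 to 3.13), on 58, 60, 6 and 82 counts. SCRM replicate 1 thus rested on 6 counts. MAP9, a microtubule-associated protein of the spindle, had 0.444 and 0.556 in RBFOXi replicates 1 and 2 and 0.200 and 0.386 in SCRM replicates 1 and 2 (delta PSI 0.207, log2 odds 1.25, 95% interval -0.06 to 2.56), with 15 counts in SCRM replicate 1. CHD9, a chromatin remodeler with chromodomains, had 0.623 and 0.587 in RBFOXi replicates 1 and 2 and 0.368 and 0.528 in SCRM replicates 1 and 2 (delta PSI 0.157, log2 odds 0.90, 95% interval 0.14 to 1.66), with 19 counts there. In all 3 the SCRM libraries differed from each other more than the RBFOXi libraries did.

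SLC29A1, the nucleoside transporter ENT1, and BAI2, an adhesion receptor now named ADGRB2, rested on more even counts. In SLC29A1, outside coding sequence, PSI was 0.542 and 0.501 in RBFOXi replicates 1 and 2 and 0.397 and 0.394 in SCRM replicates 1 and 2 (delta PSI 0.126, log2 odds 0.73, 95% interval -0.13 to 1.59), on 105, 131, 59 and 114 counts. In BAI2, where the pair adds a whole AAG codon, it was 0.798 and 0.784 in RBFOXi replicates 1 and 2 and 0.667 and 0.667 in SCRM replicates 1 and 2 (delta PSI 0.124, log2 odds 0.90, 95% interval -0.15 to 1.95), on 79, 74, 129 and 54 counts. For both, the replicates of each condition stood closer to each other than to the other condition, yet neither passed an unadjusted 0.05.

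The 5 largest differences in the other direction began with FAM63B, the deubiquitinase MINDY2, at 0.750 and 0.755 in RBFOXi replicates 1 and 2 and 1.0 and 0.803 in SCRM replicates 1 and 2 (delta PSI -0.149, log2 odds -1.49, 95% interval -3.15 to 0.18), where the SCRM value of 1.0 came from 8 counts. C11orf80, a partner of SPO11 in meiotic DNA breakage, had 0.640 and 0.545 in RBFOXi replicates 1 and 2 and 0.715 and 0.738 in SCRM replicates 1 and 2 (delta PSI -0.134, log2 odds -0.85, 95% interval -1.89 to 0.19), on 80, 72, 123 and 59 counts. MAGI1, a scaffold of cell junctions, had 0.111 and 0.158 in RBFOXi replicates 1 and 2 and 0.333 and 0.201 in SCRM replicates 1 and 2 (delta PSI -0.133, log2 odds -1.22, 95% interval -2.33 to -0.09). The lower depth again touched SCRM replicate 1, with 24 counts for MAGI1 and 25 for WDR47. WDR47, a microtubule-linked WD repeat protein, had 0.120 and 0.164 in RBFOXi replicates 1 and 2 and 0.320 and 0.200 in SCRM replicates 1 and 2 (delta PSI -0.119, log2 odds -1.06, 95% interval -2.32 to 0.20). SETDB1, a methyltransferase of histone H3 lysine 9, had 0.705 and 0.705 in RBFOXi replicates 1 and 2 and 0.865 and 0.775 in SCRM replicates 1 and 2 (delta PSI -0.115, log2 odds -0.92, 95% interval -1.97 to 0.13), on 78, 139, 37 and 142 counts. Of the 10 pairs, HLTF, CHD9 and MAGI1 had an unadjusted p under 0.05, and none of the 10 after adjustment. Without SCRM replicate 1 the delta PSI was 0.0768 in CHD9, 0.114 in MAP9, -0.0507 in FAM63B, -0.0666 in MAGI1, -0.0585 in WDR47 and -0.0696 in SETDB1, and without RBFOXi replicate 2 it was -0.0860 in C11orf80. Without SCRM replicate 2 it was 0.237 in CHD9, -0.247 in FAM63B and -0.179 in WDR47.

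**Figure D4:**
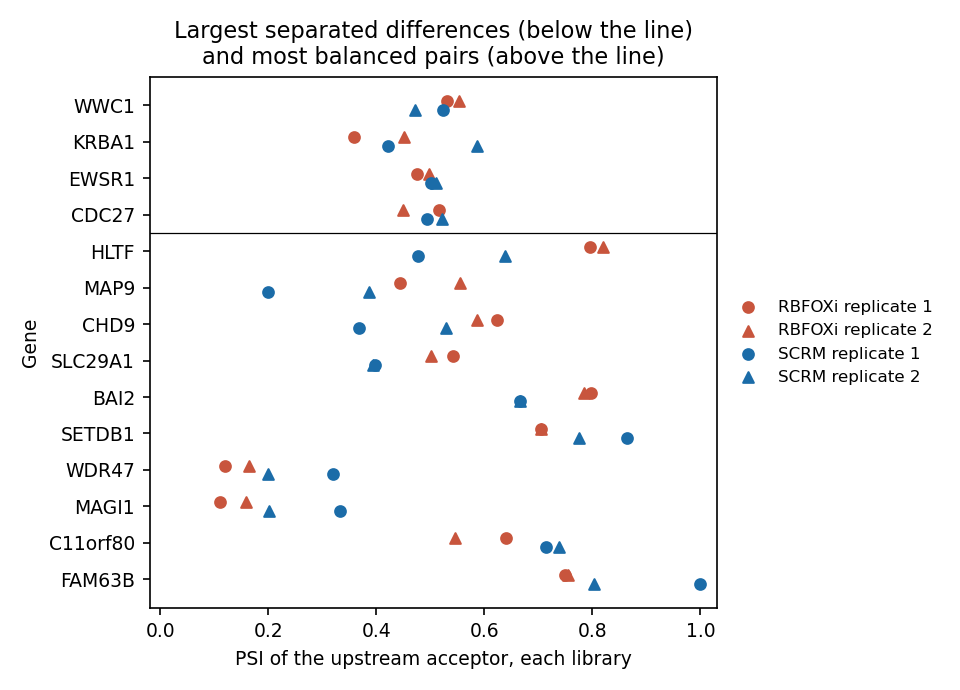
PSI of the upstream acceptor (horizontal axis) in each of the 4 libraries for the 10 pairs with the largest non-overlapping differences (below the line) and the 4 most balanced pairs (above it). For HLTF, MAP9 and CHD9 the SCRM values lie to the left of both RBFOXi values, and SCRM replicate 1 lies the furthest to the left.

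Of the 15 events with an unadjusted p under 0.05, 13 were the best counted event of their pair. The smallest p among these belonged to HMMR, a hyaluronan receptor that also acts at the spindle, where PSI was 1.0 and 1.0 in RBFOXi replicates 1 and 2 and 0.926 and 0.929 in SCRM replicates 1 and 2 at chr5:162894707-162894709 (delta PSI 0.0725, log2 odds 3.54, 95% interval 1.13 to 5.94). Only the SCRM libraries held reads of the downstream form, and these were few of the 15 and 94 counts in SCRM replicates 1 and 2. The log2 odds of HMMR thus rest on few downstream reads. The largest difference was in PPARA, a nuclear receptor that controls fatty acid breakdown, in sequence outside the coding part at chr22:46594239-46594241. Its PSI was 0.417 and 0.340 in RBFOXi replicates 1 and 2 and 0.667 and 0.692 in SCRM replicates 1 and 2 (delta PSI -0.301, log2 odds -1.76, 95% interval -3.11 to -0.41), on 36, 53, 24 and 65 counts. The libraries of the 2 conditions were well separated here, on a mean of 44.5 counts.

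The pair listed under YY1AP1 lies in GON4L by GENCODE, at chr1:155722379-155722381, and its upstream acceptor was rarely used, with 0.0464 and 0.0168 in RBFOXi replicates 1 and 2 and 0.00526 and 0 in SCRM replicates 1 and 2. SSX2IP, a centrosomal and adherens junction protein, had 0.706 and 0.725 in RBFOXi replicates 1 and 2 and 0.851 and 0.772 in SCRM replicates 1 and 2 at chr1:85121686-85121688 (delta PSI -0.0963, log2 odds -0.80, 95% interval -1.52 to -0.08). EPHB2, a receptor tyrosine kinase for ephrins, had 0.117 and 0.164 in RBFOXi replicates 1 and 2 and 0.0898 and 0.0836 in SCRM replicates 1 and 2 at chr1:23222904-23222906 (delta PSI 0.0536, log2 odds 0.75, 95% interval 0.04 to 1.46). In these 3 pairs the conditions did not overlap, and the counts of both forms together were 151 or more in every library. In YY1AP1, however, very few of the 151, 298, 190 and 257 counts (RBFOXi 1 and 2, SCRM 1 and 2) were of the upstream form. Its difference thus rests on few reads. ACSL4, which activates polyunsaturated fatty acids, had 0.751 and 0.743 in RBFOXi replicates 1 and 2 and 0.609 and 0.693 in SCRM replicates 1 and 2 at chrX:108926602-108926604, with 23 counts in SCRM replicate 1. FOXP1, a forkhead transcription factor, had 0.716 and 0.772 in RBFOXi replicates 1 and 2 and 0.604 and 0.657 in SCRM replicates 1 and 2 at chr3:71026871-71026873 (delta PSI 0.113, log2 odds 0.77, 95% interval 0.01 to 1.53). Its RBFOXi values were both above its SCRM values, while another pair of FOXP1 had a delta PSI of -0.103 with 13 counts in SCRM replicate 1. Without SCRM replicate 1 the delta PSI was 0.0543 in ACSL4 and -0.0570 in SSX2IP, without RBFOXi replicate 2 it was 0.0300 in EPHB2 and 0.0437 in YY1AP1, and without RBFOXi replicate 1 it was 0.0142 in YY1AP1.

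The remaining 3 pairs were used mostly at the upstream acceptor. HMGA1, an architectural chromatin protein, had 0.996 and 0.987 in RBFOXi replicates 1 and 2 and 0.980 and 0.987 in SCRM replicates 1 and 2 at chr6:34210489-34210491 (delta PSI 0.00830, log2 odds 1.19, 95% interval 0.05 to 2.33). PAPOLA, the nuclear poly(A) polymerase, had 0.938 and 0.934 in RBFOXi replicates 1 and 2 and 0.894 and 0.911 in SCRM replicates 1 and 2 at chr14:97022184-97022186 (delta PSI 0.0332, log2 odds 0.66, 95% interval 0.01 to 1.30). These differences amounted to 0.00830 and 0.0332 in PSI, small shifts near the upper end of the scale. FAM86C1 had 0.943 and 1.0 in RBFOXi replicates 1 and 2 and 0.888 and 0.849 in SCRM replicates 1 and 2 at chr11:71502782-71502784, in a family of near-identical copies that makes its counts uncertain.

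The other 2 of the 15 events came from pairs listed in 2 events, and they are named here after their values were seen. In ENTPD6, a nucleotide phosphatase of the secretory pathway, 1 event gave 0.741 and 0.848 in RBFOXi replicates 1 and 2 and 0.962 and 0.934 in SCRM replicates 1 and 2 (delta PSI -0.153, log2 odds -2.12, SE 0.57). The other event at the same acceptors, with more counts, gave 0.592 and 0.527 in RBFOXi replicates 1 and 2 and 0.550 and 0.554 in SCRM replicates 1 and 2 (delta PSI 0.00715). In WNK1, a kinase that controls ion transport, the 2 events differed between conditions by -0.161 and -0.0412, on 7 and 12 counts in SCRM replicate 1. Over the 34 tested pairs with more than 1 tested event, the SCRM PSI of the events of a pair spanned a median of 0.0797.

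UGCAUG, the motif of the RBFOX proteins, was searched on the strand of the gene only. It occurred within the last 300 nt of the intron before the acceptors in 63 of the 681 events (9.25%), next to a share of 7.90% among events at other distances. In the 300 nt after the exon it occurred in 64 (9.40%), and in 8.12% of the others. Median delta PSI was -0.0047 with the motif before the acceptors and 0.00102 without it, and -0.00551 and 0.00157 for the motif after the exon. Of the events with the motif, 2 and 1 had an unadjusted p under 0.05, as had 3.32% of all tested A3SS events. A match is a string of letters and was not tested as a binding site.

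Of 25 genes listed for recognition of the 3' splice site, 4 had any A3SS event. PUF60 and SF3B2 had tested pairs 3 nt apart. Of these, 0 of 2 passed the test or had an unadjusted limma p under 0.05, which 3.32% of all tested A3SS events had. In PUF60, which helps U2AF bind weak polypyrimidine tracts, PSI was 0.841 ± 0.00151 in RBFOXi and 0.841 ± 0.0227 in SCRM at chr8:144906567-144906569 (SD, n = 2 each). SF3B2, a subunit of the SF3b complex that holds the branch point, had 0.913 and 0.905 in RBFOXi replicates 1 and 2 and 0.913 and 0.905 in SCRM replicates 1 and 2 at chr11:65823006-65823008. Both differences, 0.000752 and 6.23e-05, were under the spread between replicates.

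Of 51 genes of splicing regulators, 19 had any A3SS event, and 7 had 9 tested events 3 nt apart. Of these events, 0 passed the test or had an unadjusted p under 0.05, which 3.32% of all tested A3SS events had. In RBFOX2 itself, at chr22:36177791-36177793, where the pair adds a whole CAG codon, PSI was 0.348 and 0.352 in RBFOXi replicates 1 and 2 and 0.345 and 0.330 in SCRM replicates 1 and 2 (delta PSI 0.0125, log2 odds 0.08, 95% interval -0.36 to 0.51). The downstream acceptor was the major one in all 4 libraries. The difference of the means was under that between the SCRM replicates and above that between the RBFOXi replicates. Both RBFOXi values lay above both SCRM values, as they did in 121 of the 681 tested 3 nt events. CELF1, which binds GU-rich RNA, had pairs of opposite use, with 0.980 ± 0.0102 in RBFOXi and 0.943 ± 0.0644 in SCRM at chr11:47506073-47506075 and 0.397 ± 0.0521 in RBFOXi and 0.485 ± 0.0560 in SCRM at chr11:47498509-47498511. SRSF11, a protein of the SR family, likewise had 0.347 ± 0.0137 in RBFOXi and 0.353 ± 0.00380 in SCRM outside coding sequence at chr1:70687295-70687297 and 0.677 ± 0.0145 in RBFOXi and 0.663 ± 0.0229 in SCRM at chr1:70716291-70716293. ACIN1, a component of complexes on exon junctions, had 0.806 ± 0.0332 in RBFOXi and 0.776 ± 0.0114 in SCRM at chr14:23533695-23533697. The U-rich binding protein TIA1 had 0.863 ± 0.00788 in RBFOXi and 0.885 ± 0.0189 in SCRM at chr2:70441624-70441626, and TRA2A, an activator of exon inclusion, 0.968 ± 0.00160 in RBFOXi and 0.972 ± 0.00118 in SCRM at chr7:23545430-23545432. Absolute differences in the genes named ran from 0.00328 to 0.0881.

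Of 10 genes listed for well-known NAGNAG acceptors, 5 had 8 tested events. Of these events, 0 passed the test or had an unadjusted p under 0.05, which 3.32% of all tested A3SS events had. ING4, a reader of methylated histone H3, was close to evenly used, with 0.438 and 0.434 in RBFOXi replicates 1 and 2 and 0.403 and 0.474 in SCRM replicates 1 and 2 at chr12:6761934-6761936. SMARCA4, the ATPase BRG1 of the SWI/SNF remodelers, had 0.702 ± 0.0180 in RBFOXi and 0.664 ± 0.0166 in SCRM in coding sequence at chr19:11168931-11168933 and 0.709 ± 0.0390 in RBFOXi and 0.711 ± 0.0375 in SCRM outside it at chr19:11094797-11094799. BRCA1, a DNA repair protein, had 0.731 ± 0.0172 in RBFOXi and 0.800 ± 0.0184 in SCRM at chr17:41228629-41228631 and 0.815 ± 0.0472 in RBFOXi and 0.843 ± 0.0651 in SCRM at chr17:41251895-41251897, the latter on 9 counts in SCRM replicate 1. The growth factor receptor IGF1R had 0.786 and 0.636 in RBFOXi replicates 1 and 2 and 0.433 and 0.712 in SCRM replicates 1 and 2 at chr15:99472787-99472789, on 30 to 66 counts. PAX3, a paired-box transcription factor, had 0.639 and 0.595 in RBFOXi replicates 1 and 2 and 0.761 and 0.659 in SCRM replicates 1 and 2 at chr2:223160374-223160376. The SCRM replicates of IGF1R and those of PAX3 lay further apart than the condition means. The groups did not overlap in PAX3, BRCA1 (chr17:41228629-41228631) and SMARCA4 (chr19:11168931-11168933). Over all tested 3 nt events the share without overlap was 36.0%.

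Of 32 genes of glioblastoma and cancer signalling, 4 had a tested pair. Of these 4, 0 passed the test or had an unadjusted p under 0.05, which 3.32% of all tested A3SS events had. TSC1 and TSC2, which together restrain mTOR signalling, had 0.669 ± 0.0264 in RBFOXi and 0.695 ± 0.0226 in SCRM at chr9:135786077-135786079 and 0.526 ± 0.0164 in RBFOXi and 0.554 ± 0.0119 in SCRM at chr16:2129033-2129035 (SD, n = 2 each). DAXX, a histone chaperone for H3.3, had 0.658 ± 0.0192 in RBFOXi and 0.641 ± 0.00582 in SCRM at chr6:33289752-33289754. Both forms of TSC1, TSC2 and DAXX were thus made in quantity in both conditions.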

How the data were processed

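The sources state that STAR 2.4.2a placed the reads of the 4 libraries on hg19, uniquely aligned reads only, and that rMATS counted them per splicing event on UCSC known genes. The authors deposited counts of reads for the long and the short form per library, not normalized, beside an effective length for either form. The deposited p-values, FDR and inclusion levels hold the authors' own comparison and were not used. Over all A3SS events a library held between 2944698 and 3554436 counts, and the reads are not independent molecules.

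PSI was computed from counts divided by effective lengths (equal in 713 of 928 members, 1 to 3 nt apart in 215). The log2 odds of the long form (pseudocount 0.5) entered a limma fit (limma 3.58.1, R 4.3.3) with condition as the only term and a variance trend on event information. P-values were adjusted by Benjamini-Hochberg over all 3009 tested A3SS events. Tested events had 5 or more counts in each library, 20 on average and 4 of each form. The call was an adjusted p under 0.05 together with a delta PSI of 0.1 or more in size. On simulated data with 200 events changed by 2 log2 units, limma recovered 79 (39.5%), 27 of 42 among the 3 nt events, and called 0 unchanged events. The overdispersion of all simulated events was set from the median over the real replicates.

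Genome sequence was GRCh37, which is hg19, and gene models were GENCODE lifted to it. The GENCODE name matched the symbol of the table in 837 members. Python 3.11.15, numpy 2.4.6, pandas 2.3.3, pysam 0.24.0 and matplotlib 3.10.9 were used. The pairs named were the 6 of highest count, the 5 largest differences in each direction among non-overlapping pairs with a mean of at least 50 counts, those with an unadjusted p under 0.05, the 4 nearest to a PSI of 0.5 with a mean of at least 100 counts, and those in the 4 gene lists, each by the event of highest count. Some pairs that meet this rule are not reported here. Members and lists were chosen with earlier results of these data known. Alternatives covered the test, pseudocount, count filter, delta PSI minimum, definition of PSI, 1 event per pair, the replicate number as a block and each library left out.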

Additional observations from a re-analysis of the deposited data

How the results depend on the processing

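The absence of called pairs held under every alternative that kept all 4 libraries. Leaving out each library in turn gave 0 to 5 called events and 6 to 50 with an unadjusted p under 0.05, the highest of both without SCRM replicate 2 and the lowest of the second without RBFOXi replicate 1. A group of 1 library was there assumed to vary like the other group. With the replicate number as a block, 0 were called and 24 had an unadjusted limma p under 0.05 (3.52%, against 5.22% of all tested A3SS events). The smallest adjusted p of a 3 nt event was then 0.305. The titles of same-numbered libraries share letters whose meaning is not given in the sources used here, and their deviations correlated at -0.0234 over the 3 nt events and 0.0952 over all tested A3SS events. The median absolute delta PSI was 0.0316 with a count filter of 1 per library and 0.0262 to 0.0356 with a library left out, and the median SCRM PSI 0.693 to 0.699.

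The medians by base kept their order for A against C and T. With a filter of 1 count per library, of 20 counts per library, and the range without a SCRM library, they were 0.715, 0.718 and 0.718 to 0.724 for upstream C, and 0.875, 0.896 and 0.897 to 0.903 for downstream A. Downstream G gave 0.989 and 0.979 with the 2 filters. Upstream T gave 0.723 with the lower filter, 0.732 with 1 event per pair and 0.731 to 0.751 without a SCRM library. Downstream A gave 0.870 with 1 event per pair, and upstream A 0.441 to 0.482 without a SCRM library.

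Of 49 named pairs, 11 changed direction when a library was left out, and no other alternative turned a named pair. Their delta PSI then ranged as follows, with the cause not tested: PTMA -0.00414 to 0.00297, CDC27 -0.0576 to 0.00789, BRCA1 (chr17:41251895-41251897) -0.0735 to 0.0185, CELF1 (chr11:47506073-47506075) -0.00890 to 0.0822, IGF1R -0.00108 to 0.278, ING4 -0.0383 to 0.0332, PUF60 -0.0153 to 0.0168, SF3B2 -0.00429 to 0.00441, SMARCA4 (chr19:11094797-11094799) -0.0300 to 0.0251, SRSF11 (chr1:70716291-70716293) -0.00295 to 0.0295, SRSF11 (chr1:70687295-70687297) -0.0149 to 0.00446. The lowest adjusted p of these 49 pairs under any alternative was 0.121. The events of ENTPD6, WNK1 and the other FOXP1 pair, named outside the rule, had 0.0153, 0.000668 and 0.0448 without SCRM replicate 2. A planned test with edgeR was not run, and the quasi-binomial F test, added after the data were seen, stood in for it. Changes smaller than 2 log2 units were not simulated, so how many of them this design would call is not known.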
